A study of Mus musculus with 12 samples.

Results

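Target genes of the transcription factor p53 were followed in irradiated bone marrow stroma (the layer of adherent cells that supports blood formation in marrow cultures) of mice that carry 1 inactive copy of Crebbp or of Ep300 and of wild-type mice. The members were all probe sets with a single platform symbol among 18 p53 target genes. Of these genes 7 were measured, by 8 probe sets of the 3109 tested: Btg2 by 2 probe sets, and Cdkn1a, Ccng1, Plk2, Eda2r, Trp53inp1 and Polk by 1 each. The other 11, Mdm2, Bax, Bbc3, Gdf15, Fas, Pmaip1, Sesn1, Sesn2, Perp, Phlda3 and Tnfrsf10b, had no probe set in the table used here and were not analysed here.

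There were 4 Crebbp+/- arrays, 4 Ep300+/- arrays and 4 wild-type arrays, labelled as biological replicates. The C57BL/6 mice were 3 to 4 months old. In all 3 genotypes the marrow grew for 2 weeks in M5300 medium, and the stroma then received 1500 cGy and a complete change of medium before RNA was taken. No unirradiated stroma is among the samples used here, so the values compare genotypes after irradiation and do not measure the radiation response itself. The probe set of Crebbp averaged 7.74 ± 0.09 in Crebbp+/- stroma, 8.65 ± 0.12 in Ep300+/- stroma and 8.52 ± 0.06 in wild-type stroma (log2, SD, n = 4 each), and the arrays labelled Crebbp+/- were the lowest 4. Whether this probe set lies in the inactivated part of the gene is not given in the sources used here, and Ep300 itself was not analysed here.

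p53 is stabilised by DNA damage and switches on genes that stop the cell cycle, repair DNA, feed back on p53 or promote cell death. CREBBP (CBP) and EP300 (p300) are histone acetyltransferases that serve as coactivators of many transcription factors, p53 and the cAMP-responsive factor CREB among them, and also acetylate p53. Stroma is often irradiated before use as a feeder layer so that its own cells stop dividing.

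Promoter windows are shown for the genes on which the results turn: Btg2, the member that differed most; Plk2, whose level was high on the same arrays as Btg2; and Cdkn1a, a classical p53 target. The sequences are those of RefSeq on GRCm38.p6, from 250 bases before to 50 bases after the transcription start, 5′ to 3′ on the gene's strand. Capitals in Btg2 and Plk2 mark the cAMP response element (CRE), searched as TGACGTCA, which reads the same on both strands. Capitals in Cdkn1a mark 10-base p53 half-sites, searched by the consensus on both strands. The windows lie at chr1:134079106-134079405 on the minus strand (Btg2), chr13:110394794-110395093 on the plus strand (Plk2) and chr17:29090729-29091028 on the plus strand (the first of 2 starts of Cdkn1a).

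Btg2: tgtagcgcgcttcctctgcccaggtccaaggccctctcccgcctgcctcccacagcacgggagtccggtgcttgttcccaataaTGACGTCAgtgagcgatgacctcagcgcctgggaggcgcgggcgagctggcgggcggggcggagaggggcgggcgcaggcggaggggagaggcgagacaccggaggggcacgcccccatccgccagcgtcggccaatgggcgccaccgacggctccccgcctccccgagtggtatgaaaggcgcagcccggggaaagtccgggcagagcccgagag

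Plk2: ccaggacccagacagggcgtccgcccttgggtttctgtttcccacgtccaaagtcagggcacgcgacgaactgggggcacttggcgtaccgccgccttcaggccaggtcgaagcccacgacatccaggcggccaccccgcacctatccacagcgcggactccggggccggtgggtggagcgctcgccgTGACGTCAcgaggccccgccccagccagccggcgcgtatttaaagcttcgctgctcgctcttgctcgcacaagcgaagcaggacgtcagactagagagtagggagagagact

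Cdkn1a: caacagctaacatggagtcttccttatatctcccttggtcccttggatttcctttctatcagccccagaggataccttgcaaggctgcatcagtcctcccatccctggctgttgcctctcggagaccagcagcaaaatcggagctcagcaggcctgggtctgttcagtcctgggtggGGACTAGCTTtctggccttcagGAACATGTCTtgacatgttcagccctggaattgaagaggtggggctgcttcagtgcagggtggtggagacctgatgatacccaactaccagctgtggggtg

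Counted from the start as 0, the CRE begins at -166 in Btg2 and at -62 in Plk2, and the half-sites begin at -73 and -51 in Cdkn1a. Windows were listed for 6 of the 7 measured genes, 8 windows in all. Over these, the CRE was present in 2 genes, Btg2 and Plk2, and a half-site in 3, Cdkn1a, Ccng1 and Polk. The other window of Cdkn1a, at its second start, held 0 half-sites, and so did the other window of Polk. These counts are of genes, while the shares that follow are of windows. Of all 32851 windows of 300 bases, 588 (1.79%) held the CRE and 2745 (8.36%) a half-site. A match describes letters in the window and is not a measured binding site.

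Levels are the deposited log2 values of each probe set, which are relative and are not compared between genes. Of the 8 probe sets, 1 rose in Crebbp+/- stroma and none passed in Ep300+/- stroma. The one that rose was a Btg2 probe set, 1416250_at, and the other probe set of Btg2 did not pass. Calls required an adjusted p below 0.05 in limma's fit over all 12 arrays, with Benjamini-Hochberg adjustment over all probe sets tested. Over all probe sets 6.18% were called in Crebbp+/- stroma against wild type and 0% in Ep300+/- stroma against wild type. At an unadjusted p under 0.05 the counts were 3 of the 8 in Crebbp+/- stroma, beside 26.7% of all probe sets, and 1 of the 8 in Ep300+/- stroma, beside 4.05% of all. Btg2 1416250_at is in both counts and is the only member in that of Ep300+/- stroma. It entered the table only through the heterozygous genotypes, where it is high, so these counts are no test of the members as a group. In bulk samples such as these, fewer cells of a type and less RNA per cell cannot be told apart.

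**Figure D1:**
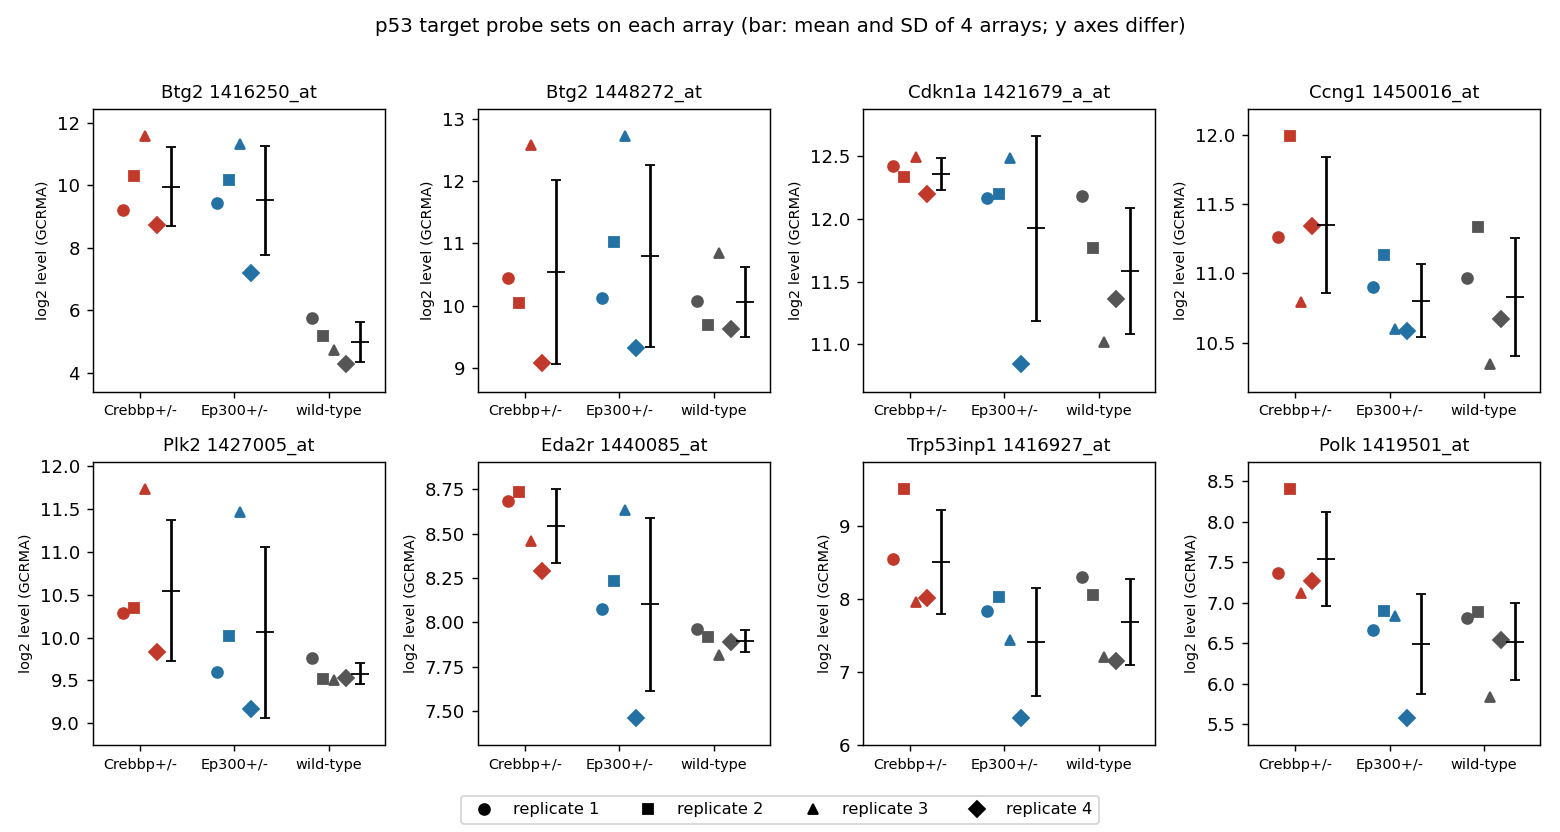
Deposited log2 levels (vertical axes, each panel with its own range) of the 8 p53 target probe sets on the 12 arrays, with genotype along the horizontal axis. Points are arrays, shaped by replicate number, and bars are the mean and SD of 4 arrays; Btg2 1416250_at lies between 7.19 and 11.58 in the heterozygous genotypes and between 4.27 and 5.77 in wild type.

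Btg2 is an antiproliferative protein of the BTG/TOB family that slows the cell cycle and helps recruit the machinery that shortens mRNA tails. It is a p53 target and is also known as an immediate-early gene of growth factor signalling. The gene lies on chromosome 1 at 134074865-134079155 (GRCm38.p6). Positions of the probes within the gene were not analysed here.

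Btg2 1416250_at had log2 levels of 9.22, 10.28, 11.58 and 8.73 on Crebbp+/- arrays 1 to 4. On Ep300+/- arrays 1 to 4 it had 9.43, 10.17, 11.32 and 7.19. On wild-type arrays 1 to 4 it had 5.77, 5.17, 4.72 and 4.27. All 8 heterozygous arrays lay above all 4 wild-type arrays, and the heterozygous genotypes overlapped each other. All 8 heterozygous arrays and 0 of the 4 wild-type arrays reached 6.64, the level that at least 3 arrays of every probe set in the deposited table reach. This probe set is thus in the table only through the heterozygous genotypes, where it is high, and its wild-type values are not shown to be above background.

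The means of 1416250_at were 9.95 ± 1.26 in Crebbp+/- stroma, 9.53 ± 1.74 in Ep300+/- stroma and 4.98 ± 0.64 in wild-type stroma (log2, SD, n = 4 each). The log2 fold change of Crebbp+/- over wild type was 4.97 (SE 0.79, 95% interval 3.25 to 6.69, 31.4-fold), and the limma adjusted p was 0.0128 (0.00460 when same-numbered arrays were blocked). For Ep300+/- over wild type the log2 fold change was 4.55 (SE 0.79, 95% interval 2.83 to 6.27, 23.4-fold), with the second smallest p of all probe sets in that comparison. The limma adjusted p was 0.120. With same-numbered arrays blocked it was 0.0392, though the numbers were not taken to pair the arrays of this comparison. Both comparisons share the wild-type arrays. An exact two-sided permutation test over arrays gave p = 0.0286 for each, the smallest that 4 arrays against 4 allow. None of these p-values takes account of the way the probe set entered the table, and the folds rest on a wild-type level that may be background.

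The call in Crebbp+/- stroma was narrow. It was lost without Crebbp+/- array 2 (limma adjusted p = 0.0503) and without wild-type array 4 (limma adjusted p = 0.0501), with log2 fold changes of 4.86 and 4.73. In Ep300+/- stroma 1416250_at passed once Ep300+/- array 4, its lowest, was left out (5.33, limma adjusted p = 0.0108).

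Btg2 1448272_at had log2 levels of 10.45, 10.04, 12.57 and 9.08 on Crebbp+/- arrays 1 to 4. On Ep300+/- arrays 1 to 4 it had 10.12, 11.02, 12.72 and 9.33. On wild-type arrays 1 to 4 it had 10.07, 9.70, 10.84 and 9.63. The genotypes overlapped, and the third array of each genotype was the highest of its group.

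The means of 1448272_at were 10.54 ± 1.47 in Crebbp+/- stroma, 10.80 ± 1.46 in Ep300+/- stroma and 10.06 ± 0.56 in wild-type stroma (log2, SD, n = 4 each). The log2 fold change over wild type was 0.48 in Crebbp+/- stroma (95% interval -1.17 to 2.13, limma adjusted p = 0.695) and 0.74 in Ep300+/- stroma (95% interval -0.91 to 2.39, limma adjusted p = 0.965). The exact permutation p was 0.686 and 0.457, and with the replicate block the limma adjusted p in Crebbp+/- stroma was 0.355. These intervals lie below the interval of 1416250_at in both comparisons. Without the third array of both heterozygous genotypes the Crebbp+/- value of 1448272_at changed sign, to -0.20.

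The disagreement of the Btg2 probe sets was measured within each array, as 1416250_at minus 1448272_at. This difference was -1.22, 0.24, -0.997 and -0.35 on Crebbp+/- arrays 1 to 4, and -0.70, -0.85, -1.40 and -2.14 on Ep300+/- arrays 1 to 4. On wild-type arrays 1 to 4 it was -4.30, -4.53, -6.12 and -5.35. The wild-type arrays lay apart from all heterozygous arrays.

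The mean difference was -0.58 ± 0.66 in Crebbp+/- stroma, -1.27 ± 0.65 in Ep300+/- stroma and -5.08 ± 0.83 in wild-type stroma (log2, SD, n = 4 each). It was 4.49 log2 units higher in Crebbp+/- stroma than in wild type and 3.81 higher in Ep300+/- stroma (exact permutation p = 0.0286 each). Crebbp+/- stroma exceeded Ep300+/- stroma by 0.69 (exact permutation p = 0.229). The tests against wild type cannot decide whether the probe sets truly disagree. They draw on 1416250_at, which is in the table only through the heterozygous genotypes and may be at background in wild type. In the deposited values the probe sets did not show 1 common change between heterozygous and wild-type stroma, and the cause was not tested. With the mean of both probe sets, an alternative value, Btg2 stood 2.72 higher in Crebbp+/- stroma (limma adjusted p = 0.0404) and 2.64 higher in Ep300+/- stroma (limma adjusted p = 0.580) than in wild type. This mean takes in 1416250_at, so the same limit holds for its p-values.

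**Figure D2:**
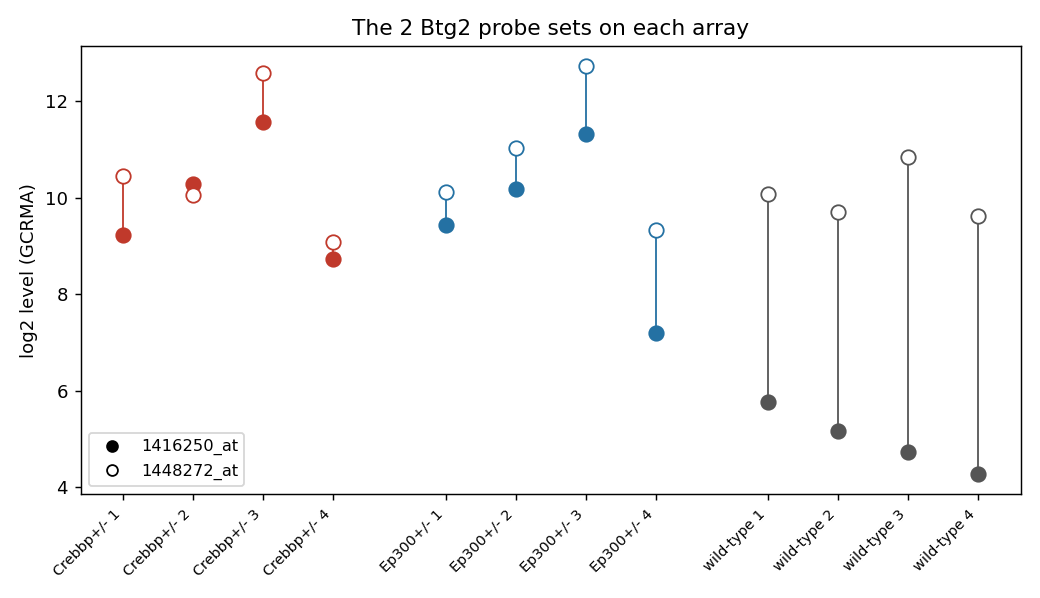
Log2 levels (vertical axis) of Btg2 1416250_at (filled) and 1448272_at (open) on each of the 12 arrays (horizontal axis), coloured by genotype, with a line joining the probe sets of an array. The lines are short on heterozygous arrays and long on wild-type arrays: heterozygous differences lie between -2.14 and 0.24 and wild-type ones between -6.12 and -4.30.

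Among the 8 heterozygous arrays the Btg2 probe sets moved together (Pearson r = 0.871, Spearman rho = 0.786, given as a description). Without Crebbp+/- array 3 and Ep300+/- array 3 r was 0.707 over 6 arrays. No r is given over all 12 arrays, because the wild-type arrays form a group of their own. The probe sets share RNA and array, so the correlation is no replication.

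Y-linked Eif2s3y was low on Crebbp+/- arrays 1 and 3, at 2.73 and 2.69, and lay between 8.41 and 10.84 on the other 10 arrays. For 1416250_at the Crebbp+/- arrays with high Eif2s3y, 2 and 4, had 10.28 and 8.73, and those with low Eif2s3y, 1 and 3, had 9.22 and 11.58. Whether what separates these arrays in Eif2s3y bears on 1416250_at was not tested. With Eif2s3y as a covariate the log2 fold change of 1416250_at in Crebbp+/- stroma was 4.67 (limma adjusted p = 0.269), and no probe set of the table passed.

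The second brake on the cell cycle is Cdkn1a, which encodes p21, an inhibitor of cyclin-dependent kinases (chromosome 17, 29090979-29100722). Cdkn1a had 12.42, 12.33, 12.49 and 12.19 on Crebbp+/- arrays 1 to 4. It had 12.16, 12.20, 12.49 and 10.84 on Ep300+/- arrays, and 12.18, 11.77, 11.02 and 11.36 on wild-type arrays. Each Crebbp+/- array lay above all wild-type arrays, though the nearest pair, 12.19 and 12.18, nearly touched. Cdkn1a was 0.78 higher (log2, SE 0.36) in Crebbp+/- stroma than in wild type and did not pass (limma adjusted p = 0.192, with the replicate block 0.0916). In Ep300+/- stroma it was 0.34 higher (limma adjusted p = 0.965).

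Ccng1 encodes cyclin G1, a p53 target that acts back on p53 through Mdm2 and a phosphatase. It had 11.26, 11.99, 10.80 and 11.34 on Crebbp+/- arrays, 10.90, 11.13, 10.60 and 10.59 on Ep300+/- arrays, and 10.97, 11.34, 10.34 and 10.67 on wild-type arrays. The genotypes overlapped. The log2 fold change over wild type was 0.52 in Crebbp+/- stroma (limma adjusted p = 0.289, with the replicate block 0.0611). In Ep300+/- stroma it was -0.02 (limma adjusted p = 0.998).

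Plk2 is a polo-like kinase that acts in centriole duplication and is induced by p53 (chromosome 13, 110395044-110400844). It had 10.29, 10.34, 11.73 and 9.83 on Crebbp+/- arrays, 9.60, 10.01, 11.47 and 9.16 on Ep300+/- arrays, and 9.76, 9.52, 9.51 and 9.53 on wild-type arrays. All Crebbp+/- arrays lay above all wild-type arrays, and the third heterozygous arrays stood highest, as for Btg2 1448272_at. The log2 fold change over wild type was 0.97 (SE 0.49) in Crebbp+/- stroma (limma adjusted p = 0.216, with the replicate block 0.0685). In Ep300+/- stroma it was 0.48 (limma adjusted p = 0.965). Without Crebbp+/- array 3 the value in Crebbp+/- stroma was 0.58, and without Ep300+/- array 3 the value in Ep300+/- stroma was 0.01.

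Plk2 and Btg2 1448272_at had r = 0.866 and rho = 0.566 over 12 arrays. The pair was singled out because it is high on the same arrays, so this is a description with no test. Without Crebbp+/- array 3 and Ep300+/- array 3 r was 0.378 over 10 arrays, so the relation rests on those arrays. The same arrays were the highest for Tnf, an inflammatory cytokine gene. Tnf stood at 14.38 on Crebbp+/- array 3 and at 14.36 on Ep300+/- array 3. On the other heterozygous arrays it ranged from 8.65 to 12.29, and in wild type it was at most 9.03, on array 3. What sets Crebbp+/- array 3 and Ep300+/- array 3 apart was not tested.

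**Figure D3:**
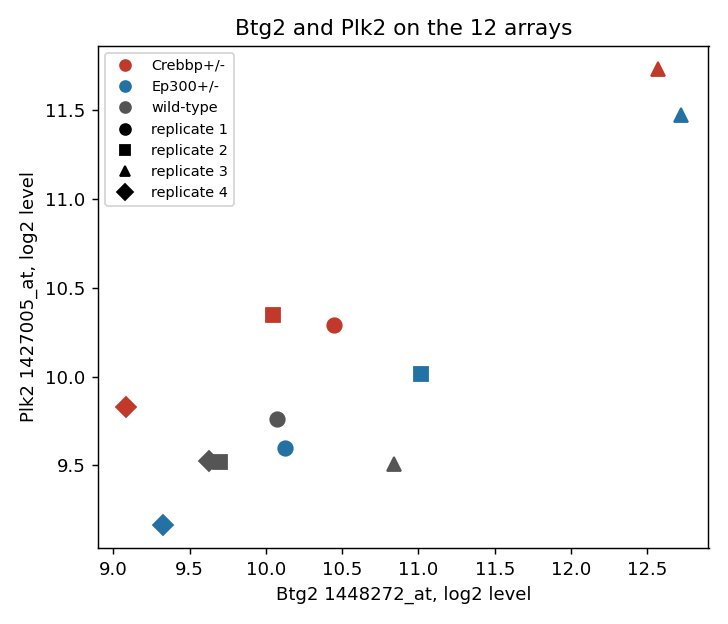
Plk2 level (log2, vertical axis) against the level of Btg2 1448272_at (log2, horizontal axis) on the 12 arrays, coloured by genotype and shaped by replicate number. Crebbp+/- array 3 and Ep300+/- array 3 stand apart at upper right, with Plk2 at 11.73 and 11.47.

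Eda2r encodes a TNF receptor family member that binds ectodysplasin A2. It had 8.69, 8.73, 8.46 and 8.29 on Crebbp+/- arrays, 8.07, 8.24, 8.64 and 7.46 on Ep300+/- arrays, and 7.96, 7.92, 7.82 and 7.89 on wild-type arrays. The Crebbp+/- arrays lay above all wild-type arrays, while the Ep300+/- arrays spread on both sides. Eda2r was 0.65 higher (log2, SE 0.26) in Crebbp+/- stroma than in wild type (limma adjusted p = 0.145, with the replicate block 0.0593). In Ep300+/- stroma it was 0.21 higher (limma adjusted p = 0.965).

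Trp53inp1 encodes a stress protein that promotes p53-dependent cell death and autophagy. It had 8.55, 9.51, 7.96 and 8.01 on Crebbp+/- arrays, 7.84, 8.03, 7.43 and 6.37 on Ep300+/- arrays, and 8.31, 8.06, 7.21 and 7.15 on wild-type arrays. The genotypes overlapped. Its log2 fold change over wild type was 0.83 (SE 0.45) in Crebbp+/- stroma (limma adjusted p = 0.253, with the replicate block 0.0406) and -0.26 in Ep300+/- stroma (limma adjusted p = 0.965).

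Polk encodes DNA polymerase kappa, which copies past damaged bases. It had 7.37, 8.40, 7.11 and 7.27 on Crebbp+/- arrays, 6.67, 6.90, 6.84 and 5.58 on Ep300+/- arrays, and 6.82, 6.88, 5.84 and 6.54 on wild-type arrays. The Crebbp+/- arrays lay above every array of both other genotypes. Polk was 1.02 higher (log2, SE 0.38) in Crebbp+/- stroma than in wild type (limma adjusted p = 0.118, with the replicate block 0.0377). In Ep300+/- stroma the log2 fold change was -0.02 (limma adjusted p = 0.999).

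**Figure D4:**
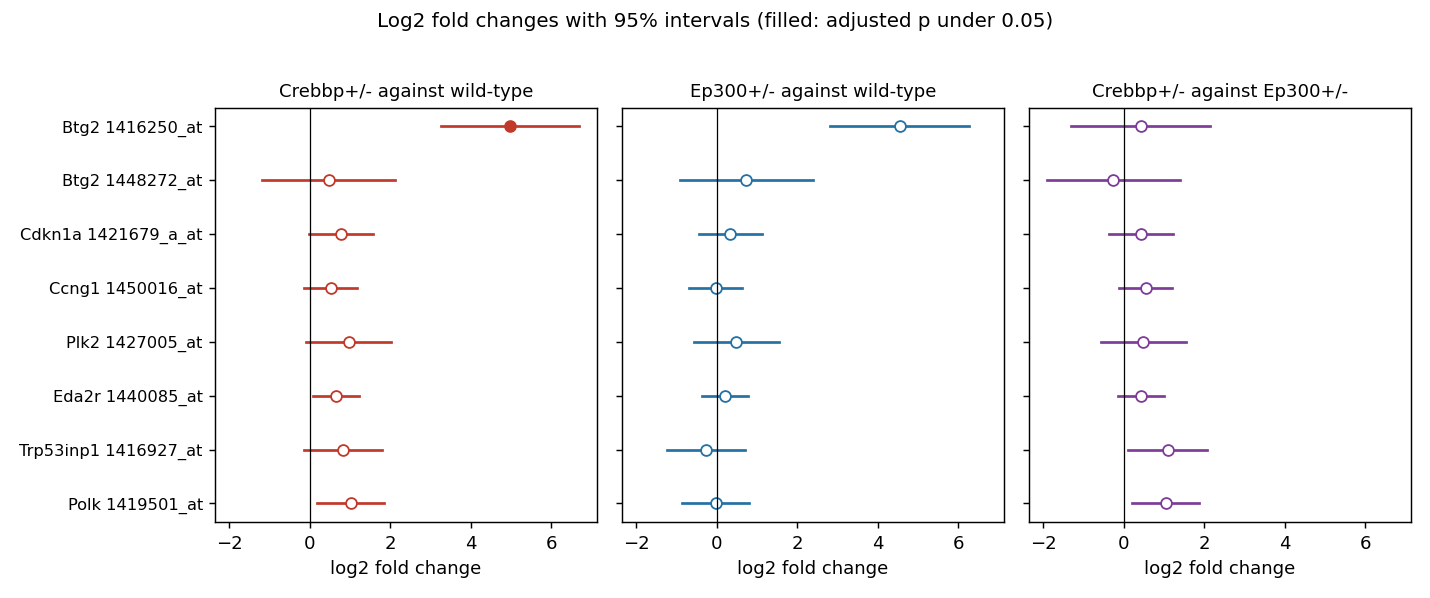
Log2 fold changes (horizontal axis) of the 8 probe sets with 95% intervals from limma, points filled where the adjusted p was under 0.05, for Crebbp+/- against wild type, Ep300+/- against wild type and Crebbp+/- against Ep300+/-. In Crebbp+/- stroma all values are positive, and 1416250_at of Btg2 stands at 4.97.

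As a group, the 8 probe sets were positive in 8 cases in Crebbp+/- stroma, with a median log2 fold change of 0.80, beside 62.4% positive and a median of 0.24 over all probe sets tested. In 5 of the 8 the Crebbp+/- and wild-type arrays did not overlap, and over all probe sets this share was 18.8%. In Ep300+/- stroma 5 of 8 were positive, with a median of 0.27 beside 0.05 over all probe sets, and 1 did not overlap, beside 4.15% over all. After each array was centred on its median, the 8 values in Crebbp+/- stroma ran from 0.28 for Btg2 1448272_at to 4.77 for 1416250_at. The share of all probe sets positive after centring is not given here. The part of a shift of all probe sets in the signs of the members was not tested. Without the third array of both heterozygous genotypes, and with no centring, 7 of the 8 were positive in Crebbp+/- stroma. The exception was Btg2 1448272_at, at -0.20. These counts describe probe sets that reached the deposited table, which holds only probe sets that varied over the arrays. Btg2 1416250_at is among the probe sets without overlap in both comparisons with wild type, and is the only member in Ep300+/- stroma. It is in the table only through the heterozygous genotypes, so its lack of overlap is no support for a change of the group.

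With the replicate block 3 of the 8 rose in Crebbp+/- stroma, 1416250_at of Btg2, Trp53inp1 and Polk, beside 26.1% of all probe sets in that fit. On all 8 probe sets Ep300+/- array 4 was the lowest Ep300+/- array. It also had the lowest median over all probe sets, 7.98, and was the lowest for 7 of the 8 after each array was centred on its median.

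The heterozygous genotypes were then set against each other. No p53 target passed, beside 6.4% of all probe sets, and 2 of the 8 had an unadjusted p under 0.05, beside 25.2% of all. The log2 fold change of Crebbp+/- over Ep300+/- was positive for 7 of 8, with a median of 0.46 beside 0.03 over all probe sets. Polk was 1.04 higher (SE 0.38, limma adjusted p = 0.116) in Crebbp+/- stroma and Trp53inp1 1.09 higher (SE 0.45, limma adjusted p = 0.156). With the replicate block both passed, at adjusted p of 0.0343 for Polk and 0.0152 for Trp53inp1, beside 24.4% of all probe sets in that fit. Polk was the 1 member of 8 whose arrays did not overlap here, beside 13.5% over all.

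For Btg2, 1416250_at differed by 0.42 (95% interval -1.30 to 2.15, exact permutation p = 0.714) and 1448272_at by -0.26 (95% interval -1.91 to 1.39, exact permutation p = 0.743). These intervals still allow differences of over 1 log2 unit either way. With the replicate block the limma adjusted p was 0.644 for 1416250_at and 0.684 for 1448272_at. The values of Cdkn1a, Ccng1, Plk2 and Eda2r were between 0.44 and 0.54 (limma adjusted p from 0.301 to 0.623, with the replicate block from 0.056 to 0.382).

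Other genes of the p53 pathway, 9 measured by 12 probe sets, gave no call in any of the 3 comparisons. In Crebbp+/- stroma against wild type 10 of 12 were positive, with a median of 0.62, and the unadjusted p of 4 was under 0.05, beside the 26.7% of all probe sets. Gadd45b, a stress-induced growth arrest gene, had 1.78 and 1.47 on its probe sets (limma adjusted p = 0.178 and 0.330). Igfbp3, which binds insulin-like growth factors, had 1.35 and 1.19 (0.137 and 0.142), and the matrix glycoprotein gene Thbs1 had 0.69 (0.137). With the replicate block these 5 of the 12 passed, beside the 26.1% of all in that fit.

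For the rest of that list in Crebbp+/- stroma against wild type, Btg1, a relative of Btg2, had 0.86, Siva1 0.56 and 0.22, and the survival gene Bcl2l1 0.43. The p53 inhibitor Mdm4 had 0.02, Gadd45a -0.01 and the cell cycle inhibitor gene Cdkn2a -0.39 (limma adjusted p from 0.339 to 0.987 for these 6 genes). In Ep300+/- stroma 8 of 12 were positive, with a median of 0.07, none had an unadjusted p under 0.05, and Gadd45b had 1.71 and 1.88 (limma adjusted p = 0.965 each). Between the heterozygous genotypes 8 of 12 were positive, with a median of 0.24, and the unadjusted p of 3 was under 0.05, beside the 25.2% of all. With the block 4 of the 12 passed there, beside 24.4% of all, and these were the probe sets of Igfbp3, Bcl2l1 and Thbs1.

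Because Btg2 is also an immediate-early gene, such genes were read beside it, 26 genes on 32 probe sets. None passed in any comparison by limma, and 1 had an unadjusted p under 0.05 in Crebbp+/- stroma, 3 in Ep300+/- stroma and 0 between the heterozygous genotypes. The shares over all probe sets in these comparisons were 26.7%, 4.05% and 25.2%. In Crebbp+/- stroma 23 of 32 were positive with a median of 0.61, and in Ep300+/- stroma 28 of 32 with a median of 0.79. Without Crebbp+/- array 3 and Ep300+/- array 3 these medians were 0.07 and 0.37. The p53 target medians without those arrays were 0.72 in Crebbp+/- stroma and 0.04 in Ep300+/- stroma, beside 0.27 and 0.08 over all probe sets.

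In Crebbp+/- stroma against wild type, Dusp2 had 3.32 and Dusp5 1.70, both genes of phosphatases that act on MAP kinases. Neither passed (limma adjusted p = 0.242 and 0.177), and with the block both did (adjusted p = 0.0478 and 0.0307), the only 2 of the 32, beside 26.1% of all probe sets in that fit. Dusp2 lay between 3.00 and 6.58 on wild-type arrays, below 6.64, so it is in the table only through heterozygous arrays. Those ranged widely, with 12.53 on Crebbp+/- array 3, 12.21 on Ep300+/- array 3 and 4.48 on Crebbp+/- array 4. Fold changes of Dusp2 thus rest on a wild-type level that may be background. Ier5 had 1.004 (limma adjusted p = 0.199), Egr2 0.98 and 1.04 (0.298 and 0.277), Nr4a1 1.11 (0.363) and Nr4a3 1.64 (0.432). Nr4a3 lay at 3.46, 3.53, 6.72 and 3.51 on wild-type arrays 1 to 4, and only array 3 reached 6.64. The fold change of Nr4a3 may thus also rest on a background level. Junb had 0.95, Csrnp1 1.24, Egr1 0.78, Jun 0.81 and 0.62, Ier3 0.63, Zfp36l1 0.49 and Klf6 0.50 and -0.05 (limma adjusted p from 0.408 to 0.916). Dusp6 had -0.31, and Ccn1 had -0.86 and -0.96 (limma adjusted p from 0.361 to 0.502). Against wild type, Ep300+/- stroma had Dusp2 at 3.88 (log2 fold change, limma adjusted p = 0.965) and Egr2 at 1.70 and 1.90 (limma adjusted p = 0.865 and 0.841). Both Egr2 probe sets, which measure the same gene, were higher on every Ep300+/- array than on any wild-type array. Of the 32 probe sets 3 did not overlap in that comparison, beside 4.15% of all probe sets. Between the heterozygous genotypes 9 of 32 were positive, with a median of -0.23.

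The genes most like each Btg2 probe set over the 12 arrays differed. For 1416250_at the 5 of highest Pearson r were Klf7 (0.894), P2ry14 (0.885), Ccl2 (0.867), Pde4b (0.861) and Fnip1 (0.855), and the 3 of lowest r were Arhgap45 (-0.934), Atp13a2 (-0.909) and Sephs2 (-0.887). Of these Klf7 was called in Crebbp+/- stroma against wild type, at 0.99 (limma adjusted p = 0.0353), beside 6.18% of all probe sets. Klf7 was picked for following a probe set that separates these genotypes, so its call is no separate result. For 1448272_at the 5 highest were Zfp36 (0.978), Pim1 (0.975), Cxcl1 (0.966), Fosb (0.962) and Kdm6b (0.962), and the 3 lowest were Hsd17b7 (-0.939), 2610507B11Rik (-0.889) and Ap1s2 (-0.885). The 2 lists share no gene. These values describe arrays that share genotype groups, and for 1448272_at they also follow the third heterozygous arrays.

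Some marker genes of other cell types differed in Crebbp+/- stroma. Of 14 endothelial marker genes 12 were measured, with a mean log2 level per array of 8.13 to 10.01 in Crebbp+/- stroma, 6.73 to 7.64 in Ep300+/- stroma and 7.29 to 8.46 in wild-type stroma. Against wild type 9 of their 14 probe sets rose in Crebbp+/- stroma. In that comparison 6.18% of all probe sets were called in either direction, and this share stands beside the counts of the lists that follow. The list mean of the 4 measured smooth muscle and pericyte genes spanned 8.79 to 9.18, 7.07 to 8.13 and 7.16 to 8.21 in the same order of genotypes, and 5 of their 7 probe sets rose in Crebbp+/- stroma.

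The list mean of the 3 measured macrophage genes, Cd14, Cd163 and Fcgr1, spanned 11.89 to 12.92, 11.87 to 12.84 and 11.48 to 11.60. This mean was above wild type on all 8 heterozygous arrays, while of the 3 probe sets 1 rose in Crebbp+/- stroma and 0 passed in Ep300+/- stroma. The list mean of the 3 osteoblast genes spanned 8.24 to 8.87, 8.84 to 9.89 and 9.46 to 9.98, and 1 of their 4 probe sets fell in Crebbp+/- stroma.

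The 5 measured adipocyte genes had list means of 11.27 to 12.46, 11.35 to 12.54 and 11.53 to 12.81, and 3 of their 11 probe sets fell in Crebbp+/- stroma. Of 6 mast cell and basophil marker genes 1 was measured, Kit, so that list rests on 1 gene. Kit spanned 6.26 to 9.43, 6.25 to 7.88 and 6.18 to 8.37 and did not pass. The 9 measured reticular stroma and fibroblast genes had list means of 9.60 to 10.74, 8.96 to 10.43 and 9.58 to 10.62, and 0 of their 17 probe sets passed. No probe set of any of these lists passed in Ep300+/- stroma against wild type. Of the granulocyte, B and plasma cell, T and NK cell and erythroid marker lists 0 genes had a value in the table. The part of these cell types in the levels of the p53 targets was not tested.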

How the data were processed

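RNA of 12 bone marrow stroma cultures was hybridised to Affymetrix arrays, 4 per genotype. The values are log2 expression levels as deposited by the authors, for which the submitters' processing notes name GCRMA. Its version is not given in the sources used here. GCRMA corrects background, normalises arrays and summarises probes. The deposited table held 3127 probe sets, 18 of them controls. The lowest interquartile range was 0.5001, and every probe set had at least 3 arrays at 6.64 or more, a filter read from the values. Array medians were 7.98 to 8.43.

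The other 3109 probe sets went into 1 linear model that held the 3 genotypes and nothing else (lmFit and eBayes of limma 3.58.1, under R 4.3.3), two-sided, with Benjamini-Hochberg adjustment over all of them, with calls at an adjusted p below 0.05. The fit was tested on simulated data. Permutation tests used scipy 1.17.1. Of the probe sets, 2486 had 1 symbol in the platform annotation, 176 several and 447 none, and only the first kind was named. The members and gene lists were chosen with earlier results of these data known. All p53 targets, up to 15 genes of each context list and the nearest genes to Btg2 by correlation were named. Replicate numbers come from the labels. Deviations of same-numbered arrays correlated at 0.448 to 0.603 for Crebbp+/- and wild type and at 0.294 to 0.513 for Crebbp+/- and Ep300+/-. The block is therefore printed beside the p53 target results of those comparisons. For the other gene lists it is not given for every probe set. The p-values measure the spread between labelled replicates, which may in part be technical. The number of arrays limits the precision.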

Additional observations from a re-analysis of the deposited data

Results flagged for a closer look

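Single arrays stood far from the other 3 of their genotype in 4 of 60 groups checked among the p53 targets and the wider p53 pathway, where chance gives about 1 in 20. Plk2 in wild type had 9.76 on array 1 and 9.51 to 9.53 on the others. The other 3 lay on Crebbp+/- array 4. Igfbp3 had 10.12 there on probe set 1423062_at, with 11.91 to 12.07 on the other Crebbp+/- arrays, and 9.09 on probe set 1458268_s_at, with 10.67 to 10.98 on the others. Cdkn2a had 8.18 there and 7.42 to 7.48 on the others. No group of a Btg2 probe set was among them.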

How the results depend on the processing

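With array weights 6 p53 targets passed in Crebbp+/- stroma against wild type, 1 in Ep300+/- stroma against wild type and 2 between the heterozygous genotypes, and of all probe sets 1267, 13 and 1273. With the replicate block the p53 targets passing were 3, 1 and 2, and all probe sets 812, 1 and 760. In Ep300+/- against wild type the numbers were not taken to pair the arrays (correlations 0.0593 to 0.683), and there 1416250_at of Btg2 passed with the block (adjusted p = 0.0392). With Eif2s3y as a covariate 0 p53 targets and 0 probe sets passed in Crebbp+/- stroma against wild type, and 0 probe sets between the heterozygous genotypes. Using only the compared genotypes gave 51 probe sets between the heterozygous genotypes, and leaving out Crebbp+/- array 3 and Ep300+/- array 3 gave 122.

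Leaving out 1 array at a time gave 0 to 1 p53 targets in Crebbp+/- stroma, 0 to 1 in Ep300+/- stroma and 0 to 0 between them, and of all probe sets 5 to 383, 0 to 1 and 2 to 374. For 1416250_at the log2 fold change ran from 4.43 to 5.38, from 3.95 to 5.33 and from -0.36 to 1.02, and for 1448272_at from -0.20 to 0.96, from 0.10 to 1.23 and from -0.94 to 0.38. With 3 arrays in a group the exact permutation test cannot pass. Without those 2 arrays 1416250_at stood at 4.43 in Crebbp+/- and 3.95 in Ep300+/- stroma, and 1448272_at at -0.20 in Crebbp+/- stroma.

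Signs turned in values that had not passed. With the covariate 1448272_at had -0.34 in Crebbp+/- stroma. In Ep300+/- stroma Trp53inp1 had 0.157, Polk 0.127 and Ccng1 0.0741 with array weights, Polk 0.0142 and Ccng1 0.00973 with the covariate, and Ccng1 0.0446 without those 2 arrays. Between the heterozygous genotypes 1416250_at had -0.34 with array weights. With 1 array left out, Trp53inp1 ran from -0.467 to 0.0867, Polk from -0.249 to 0.281 and Ccng1 from -0.186 to 0.144 in Ep300+/- stroma. The cause of these shifts was not tested. Quantile normalisation, median centring, a level filter and robust eBayes each left 1416250_at called in Crebbp+/- stroma (log2 fold changes of 4.77 to 4.97).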
